A study of Mus musculus with 8 samples.

Results

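A set of 10 genes of the neuronal cytoskeleton and synapse, made up of Tubb3, Prph, Nefl, Nefm, Nefh, Uchl1, Gap43, Stmn2, Snap25 and Elavl4, were followed in RNA sequencing of whole mouse aortas. Members were found by gene name in the table of 48607 assembled loci. A gene with several loci was to be represented by the locus selected on the summed count of the 8 libraries, but each of the 10 had a single locus, which carried no other gene name. All 8 libraries came from mice without apolipoprotein E (ApoE-/-), a model of atherosclerosis, fed a Western diet for 12 weeks. By title, 5 libraries were ApoE-/- and 3 were NPRC-/-ApoE-/-, which also lacked functional natriuretic peptide receptor C, encoded by Npr3. The NPRC-/- line carried a CRISPR frameshift in exon 1 of Npr3 in all tissues on a C57BL/6 background. The mice of both groups were littermates. The study bought its ApoE-/- mice as males at 8 weeks of age, and for the sequenced littermates age and sex are not given in the sources used here.

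The title and the separate genotype entry of a library named the same genotype for 4 of 8 libraries, ApoE-/- 1, 2 and 3 and NPRC-/-ApoE-/- 3. Libraries titled ApoE-/- 4 and 5 were entered as NPRC-/-ApoE-/-, and those titled NPRC-/-ApoE-/- 1 and 2 were entered as ApoE-/-. Each comparison was therefore made under both labels, and library names below are those of the titles. Npr3 did not settle the labels, with 1.69, 0.93, 0.62, 1.01 and 1.67 FPKM (fragments scaled to transcript length and sequencing depth) in ApoE-/- 1 to 5 and 1.18, 1.39 and 1.13 in NPRC-/-ApoE-/- 1 to 3. A frameshift need not lower the RNA, so this level does not check the genotype. Total counts ran from 62969165 to 86693276. Smooth muscle markers, which define the aortic wall, summed to between 6386 and 15311 CPM (counts scaled to an equal library total, with a further scaling between libraries for such sums) in all libraries.

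The wall of an artery holds no nerve cell bodies as a rule. It is supplied by axons of sympathetic and sensory neurons, which run in the adventitia and the fat around the vessel, and sympathetic ganglia lie close to the aorta. Axons are built on microtubules, made of tubulins such as Tubb3, and on neurofilaments, which Nefl, Nefm and Nefh form together, with Prph in peripheral neurons. Gap43 and Stmn2 belong to growing axon endings, Snap25 is part of the complex that fuses synaptic vesicles with the membrane, Elavl4 binds and stabilises neuronal mRNAs, and Uchl1 is an abundant neuronal ubiquitin hydrolase.

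RefSeq promoters of the build GRCm38.p6 were held for 4 of the 10 genes, Tubb3, Prph, Elavl4 and Uchl1, and the 250 bases before the transcription start of 3 are shown. Prph and Elavl4 are shown as 2 genes that were far lower in the libraries titled NPRC-/-ApoE-/-, and Uchl1 as the most abundant gene, which did not pass the test. Sequences run 5′ to 3′ in the direction of the gene, and capitals mark matches on either strand to the TATA box, with the letters TATAAA. They also mark the CCAAT box, searched by those 5 letters, and the GC box, with the letters GGGCGG.
Prph, chr15:99054924-99055173, plus strand: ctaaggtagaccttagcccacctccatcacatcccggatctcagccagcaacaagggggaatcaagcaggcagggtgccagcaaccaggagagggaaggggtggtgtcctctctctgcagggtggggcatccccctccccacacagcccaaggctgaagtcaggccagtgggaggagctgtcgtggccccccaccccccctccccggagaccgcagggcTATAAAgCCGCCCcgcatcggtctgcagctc
Elavl4, chr4:110287528-110287777, minus strand: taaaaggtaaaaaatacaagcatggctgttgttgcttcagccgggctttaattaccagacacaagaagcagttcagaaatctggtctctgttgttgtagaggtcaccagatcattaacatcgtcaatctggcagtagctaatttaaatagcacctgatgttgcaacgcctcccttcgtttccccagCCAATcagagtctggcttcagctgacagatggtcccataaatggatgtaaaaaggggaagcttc
Uchl1, chr5:66675871-66676120, plus strand: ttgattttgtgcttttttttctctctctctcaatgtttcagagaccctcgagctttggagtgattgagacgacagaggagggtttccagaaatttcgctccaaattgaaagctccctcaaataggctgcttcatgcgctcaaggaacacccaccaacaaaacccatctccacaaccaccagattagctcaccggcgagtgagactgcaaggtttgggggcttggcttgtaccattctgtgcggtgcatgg
The Prph promoter held a TATA box whose first base lay 31 bases before the start, with a GC box on the opposite strand beginning 24 bases before the start. In Elavl4, shown at the RefSeq start that coincides with the start of a transcript listed at its locus, the match was a CCAAT box 64 bases before the start, in a promoter with a GC content of 44.0% against 65.2% in Prph. No match was found in these 250 bases of Uchl1, with a GC content of 48.8%, whose RefSeq start lay 30 bases inside a transcript listed at its locus. The Tubb3 promoter held 2 GC boxes and a CCAAT box on the opposite strand. Its RefSeq start lay 129 bases inside the transcript listed at its locus. The GC box 46 bases and the CCAAT box 77 bases before the RefSeq start thus fell within that transcript. Only the GC box 138 bases before the RefSeq start lay upstream of it. In the 32817 promoters of the table, searched over the same 250 bases before the start, 12.4% held a TATA box, 33.8% a CCAAT box and 32.7% a GC box. A match of letters is a description and not a binding site.

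By title, 8 of the 10 genes were lower in NPRC-/-ApoE-/- aortas by the criterion of the study, which asks for a change of more than 2-fold at an unadjusted p-value under 0.05. Prph, Nefl, Nefm, Gap43, Snap25 and Elavl4 were more than 10-fold lower, and Tubb3 and Stmn2 were 3.23-fold and 2.29-fold lower. The neurofilament gene Nefh and the ubiquitin hydrolase gene Uchl1 did not pass the test. Among the 32823 loci tested, 3.79% were called lower, 1.52% higher and 5.31% in either direction. For 6 of the 10 genes, all but Tubb3, Nefh, Uchl1 and Gap43, every library titled NPRC-/-ApoE-/- lay below every ApoE-/- library, as did 4.49% of all loci. The 10 genes were proposed with results of this comparison known, so their count is a description and is not evidence for a change. None of the 10 had an adjusted p-value under 0.05 (quasi-likelihood test of edgeR, Benjamini-Hochberg method), and 0 of the loci tested did, the smallest being 0.0705. Before adjustment, 4158 loci (12.7%) had a p-value under 0.05. DESeq2 gave 999 loci an adjusted p-value under 0.05, 6 of the 10 genes among them. By genotype entry, 0 of the 10 were called and 0 had groups that did not overlap, where 0.481% of the loci were called lower, 0.515% higher, 0.996% in either direction, and 0.801% lay lower without overlap. All 10 passed the filter of 10 counts in at least 3 libraries, though 6 were under that count in at least 1 library titled NPRC-/-ApoE-/- and so passed through the ApoE-/- libraries. In a whole aorta, fewer nerve fibres and less RNA per fibre cannot be told apart.

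**Figure D1:**
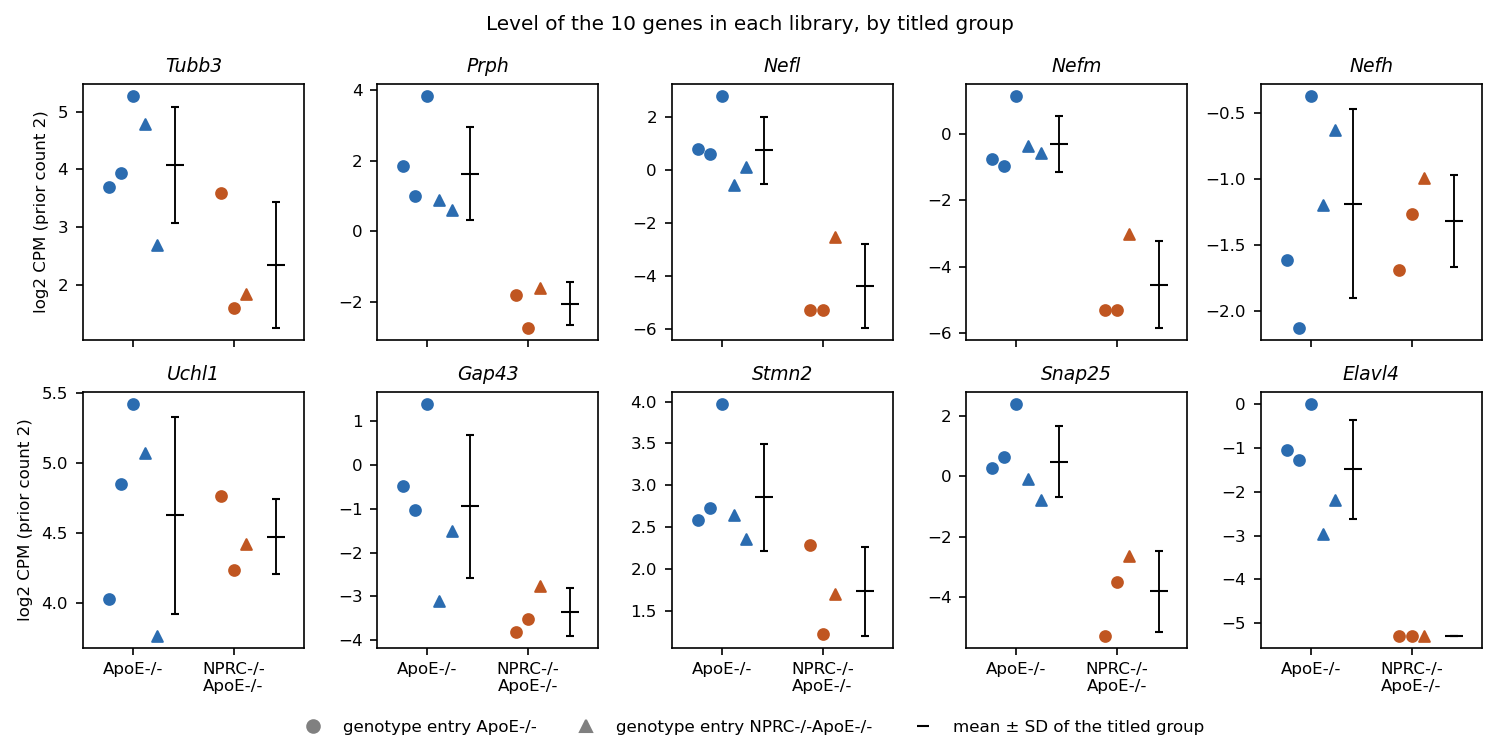
Level of each gene in the 8 libraries as log2 CPM with a prior count of 2, with ApoE-/- by title on the left (blue) and NPRC-/-ApoE-/- on the right (orange). Circles and triangles give the genotype entry, and bars give the mean ± SD of the titled group, with the libraries of each group drawn in the order of their numbers. The 3 Elavl4 points on the right are libraries with 0 counts, and ApoE-/- 3 is the highest library in all 10 panels.

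Tubb3 (chr8:123411424-123422015, plus strand, GRCm38, as are all loci below), which encodes the neuronal class III beta-tubulin, had 6.11, 7.01, 15.99, 11.47 and 3.07 FPKM in ApoE-/- 1 to 5 and 5.47, 1.33 and 1.5 in NPRC-/-ApoE-/- 1 to 3. The titled groups overlapped, since NPRC-/-ApoE-/- 1 lay above ApoE-/- 5. Its log2 fold change was -1.69 (standard error 0.66, unadjusted p = 0.0299 and adjusted p = 0.352 with edgeR). Standard errors here and below were back-calculated from the log2 fold change and the F statistic of the test. They are approximate, most of all for genes with few counts in a group. The call was lost without ApoE-/- 3, ApoE-/- 4, NPRC-/-ApoE-/- 2 or NPRC-/-ApoE-/- 3, with log2 fold changes of -1.32, -1.56, -1.33 and -1.41, and the log2 fold change was -2.62 without NPRC-/-ApoE-/- 1. The annotated gene Gm20388 covers the Tubb3 locus on the same strand, so shared reads could have been assigned to either.

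Stmn2 (chr3:8509360-8561606, plus strand), which encodes a regulator of microtubules in growing axons, had 0.93, 1.01, 2.17, 0.86 and 0.81 FPKM in ApoE-/- 1 to 5 and 0.73, 0.34 and 0.45 in NPRC-/-ApoE-/- 1 to 3. Every ApoE-/- library lay above every NPRC-/-ApoE-/- library, by a narrow margin. The log2 fold change was -1.19 (standard error 0.42, unadjusted p = 0.0193 and adjusted p = 0.325 with edgeR). The call was lost without ApoE-/- 3, NPRC-/-ApoE-/- 2 or NPRC-/-ApoE-/- 3, where the log2 fold changes were -0.79, -0.94 and -1.15.

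Prph (chr15:99055174-99058978, plus strand), which encodes peripherin, the intermediate filament of peripheral neurons, was counted 311, 137, 1080, 141 and 123 times in ApoE-/- 1 to 5 and 23, 8 and 25 times in NPRC-/-ApoE-/- 1 to 3. Those counts were 1.58, 0.84, 5.46, 0.70 and 0.66 FPKM against 0.11, 0.05 and 0.12 FPKM. The groups were far apart, with the lowest ApoE-/- library above all 3 NPRC-/-ApoE-/- libraries. Prph was 19.6-fold lower (log2 fold change -4.30, standard error 0.94, unadjusted p = 0.0013 and adjusted p = 0.216 with edgeR).

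Nefl (chr14:68083863-68089095, plus strand), the gene of the light neurofilament subunit on which the other subunits assemble, had 146, 103, 523, 50 and 86 counts in ApoE-/- 1 to 5. Its counts were 0, 0 and 12 in NPRC-/-ApoE-/- 1 to 3. Only NPRC-/-ApoE-/- 3, the one library entered as NPRC-/-ApoE-/- in both labels, held any Nefl reads among these 3. Its log2 fold change was -5.50 (standard error 1.32, unadjusted p = 0.0023 and adjusted p = 0.230 with edgeR), a value set by those 12 counts.

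Nefm (chr14:68082590-68124846, minus strand), the gene of the medium subunit, had 49, 34, 167, 59 and 53 counts in ApoE-/- 1 to 5 and 0, 0 and 8 in NPRC-/-ApoE-/- 1 to 3. As for Nefl, NPRC-/-ApoE-/- 3 was the only library of its group with reads, and the groups did not overlap. The log2 fold change was -4.73 (standard error 1.11, unadjusted p = 0.0020 and adjusted p = 0.225 with edgeR). Nefm and Nefl overlap on opposite strands, and whether the counting used strand is not given in the sources used here, so reads of one may be counted in the other. The ratio of Nefl to Nefm counts was 2.98, 3.03, 3.13, 0.847 and 1.62 in ApoE-/- 1 to 5 and 1.5 in NPRC-/-ApoE-/- 3. It was lower in the 3 libraries entered as NPRC-/-ApoE-/- than in the 3 ApoE-/- libraries on which both labels concur. The ratio is undefined in NPRC-/-ApoE-/- 1 and 2, and this split was noticed after the values were seen and was not tested.

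Nefh (chr11:4938754-4948064, minus strand), the gene of the heavy subunit, had 26, 14, 57, 32 and 51 counts in ApoE-/- 1 to 5 and 25, 25 and 39 in NPRC-/-ApoE-/- 1 to 3. The groups overlapped widely, and all 3 NPRC-/-ApoE-/- libraries lay inside the ApoE-/- range. Its log2 fold change was -0.25 (standard error 0.48, unadjusted p = 0.615 and adjusted p = 0.863 with edgeR). In NPRC-/-ApoE-/- 1 and 2, Nefh was thus counted 25 times in each library while Nefl and Nefm were at 0. In the ApoE-/- libraries, Nefl had more counts than Nefh in every library.

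Gap43 (chr16:42248442-42340651, minus strand), whose protein marks growing and regenerating axon tips, had 60, 32, 198, 7 and 27 counts in ApoE-/- 1 to 5 and 4, 4 and 10 in NPRC-/-ApoE-/- 1 to 3. ApoE-/- 4, entered as NPRC-/-ApoE-/-, fell below NPRC-/-ApoE-/- 3, so the groups overlapped. The log2 fold change was -3.41 (standard error 1.08, unadjusted p = 0.0111 and adjusted p = 0.291 with edgeR).

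Snap25 (chr2:136713453-136782428, plus strand), a SNARE protein gene of the synaptic vesicle release machinery, had 102, 106, 400, 71 and 46 counts in ApoE-/- 1 to 5 and 0, 4 and 11 in NPRC-/-ApoE-/- 1 to 3. No ApoE-/- library was as low as any NPRC-/-ApoE-/- library. The log2 fold change was -4.82 (standard error 1.11, unadjusted p = 0.0018 and adjusted p = 0.225 with edgeR).

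Elavl4 (chr4:110203722-110292722, minus strand), which encodes the neuronal RNA-binding protein HuD, had 40, 27, 75, 8 and 16 counts in ApoE-/- 1 to 5 and 0 counts in all 3 NPRC-/-ApoE-/- libraries. It was the only one of the 10 genes with no reads in that group. Against a floor of 3 counts over the group (0.0127 CPM), Elavl4 was at least 33.2-fold lower than the pooled ApoE-/- level of 0.424 CPM, a limit that covers counting error only. The unadjusted p was 0.000794 and the adjusted p 0.197 with edgeR. ApoE-/- 3 held 75 of the 166 counts of the ApoE-/- group, and without that library the bound was 23.1-fold. ApoE-/- 4 and 5, the libraries with conflicting labels, were the lowest of the ApoE-/- group.

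Uchl1 (chr5:66676091-66687234, plus strand), the gene of the ubiquitin hydrolase PGP9.5, used widely to stain nerve fibres, had 8.77, 15.15, 20.37, 16.07 and 7.41 FPKM in ApoE-/- 1 to 5. It had 14.06, 9.58 and 10.36 FPKM in NPRC-/-ApoE-/- 1 to 3, all within the ApoE-/- range. The log2 fold change was -0.27 (standard error 0.36, unadjusted p = 0.482 and adjusted p = 0.796 with edgeR). The antisense transcript Uchl1os overlaps the gene, and its reads cannot be told apart from those of Uchl1 where strand was not used.

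ApoE-/- 3 was the highest library for all 10 genes, and each result was therefore also computed without it. The log2 fold changes were then -3.25 for Prph, -4.56 for Nefl, -4.14 for Nefm, -2.34 for Gap43 and -3.98 for Snap25, and these 5 genes and Elavl4 were still called. Uchl1 had -0.04 and Nefh -0.00422. The median over the 10 genes moved from -3.85 to -2.79, against -0.01 over all loci tested with all libraries. The smallest unadjusted p among the 5 was 9.99e-05 for Prph, with an adjusted p of 0.188 (edgeR). These 5 genes and Elavl4 were called with any of the 8 libraries left out. Without NPRC-/-ApoE-/- 1 the log2 fold changes of Nefl, Nefm and Snap25 were -4.89, -4.12 and -4.21. Without NPRC-/-ApoE-/- 3 that of Snap25 was -6.00, and Nefl and Nefm had 0 counts in both NPRC-/-ApoE-/- libraries that remained.

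**Figure D2:**
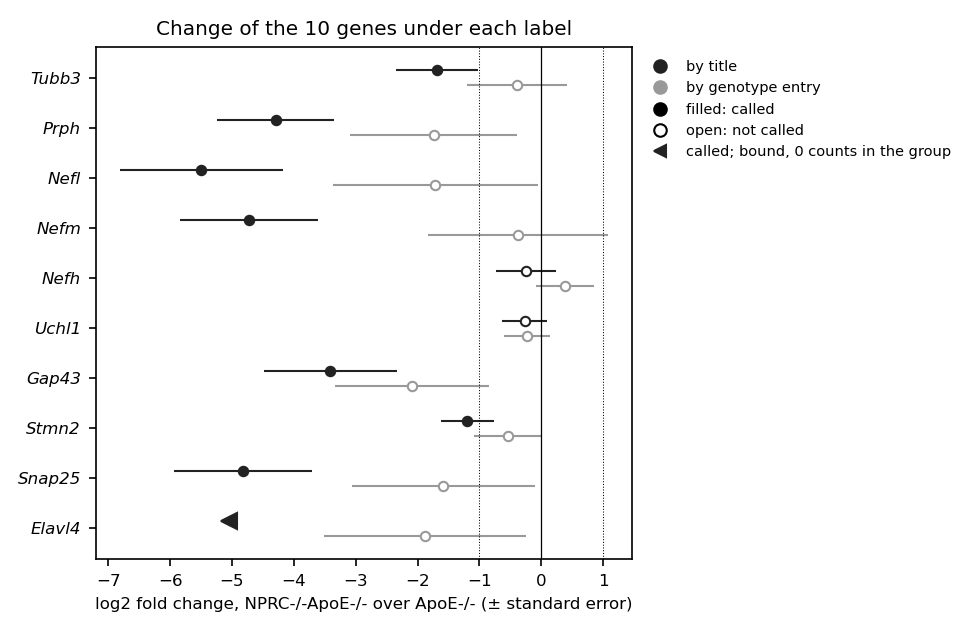
Log2 fold change of each gene, NPRC-/-ApoE-/- over ApoE-/-, by title (dark) and by genotype entry (grey). Bars are 1 standard error, back-calculated from the test, and dotted lines are at a fold of 2. Filled points were called; Elavl4 by title is drawn as a triangle at its bound for a group with 0 counts. By title 8 genes were called, and by genotype entry every point is open.

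Under the genotype entry none of the 10 genes was called, all 10 had overlapping groups, and the median log2 fold change was -1.07. Gap43 had the lowest value, -2.09 (standard error 1.25), followed by -1.88 for Elavl4 (1.64), -1.74 for Prph (1.35), -1.71 for Nefl (1.66) and -1.58 for Snap25 (1.48). Nefh was the one gene with a value above 0, at 0.38 (0.47). The values of Stmn2, Tubb3, Nefm and Uchl1 lay between -0.55 and -0.23. The adjusted p was 0.9999 for all 10 with edgeR. An effect called by title and not by entry is not thereby shown to differ between the labels, which share the 8 libraries.

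Values were also read apart in the libraries with and without a label conflict. In the 4 libraries with 1 genotype in both labels, NPRC-/-ApoE-/- 3 lay below ApoE-/- 1, 2 and 3 for 8 genes, the exceptions being Nefh and Uchl1. Mean Prph was 6.32 CPM in these 3 ApoE-/- libraries against 0.292 CPM in NPRC-/-ApoE-/- 3, and Snap25 was 2.56 against 0.128 CPM. In the 4 libraries with conflicting labels, those titled NPRC-/-ApoE-/- 1 and 2 lay below those titled ApoE-/- 4 and 5 for 7 genes, all but Tubb3, Nefh and Uchl1. Mean Prph was 1.63 CPM in ApoE-/- 4 and 5 against 0.196 CPM in NPRC-/-ApoE-/- 1 and 2, and Snap25 was 0.718 against 0.0318 CPM. With 1 to 3 libraries a side, these values carry no test. The share of all loci with the same order was not computed, so the counts of 8 and 7 genes are descriptions and do not settle the labels. The labels name no batch.

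**Figure D3:**
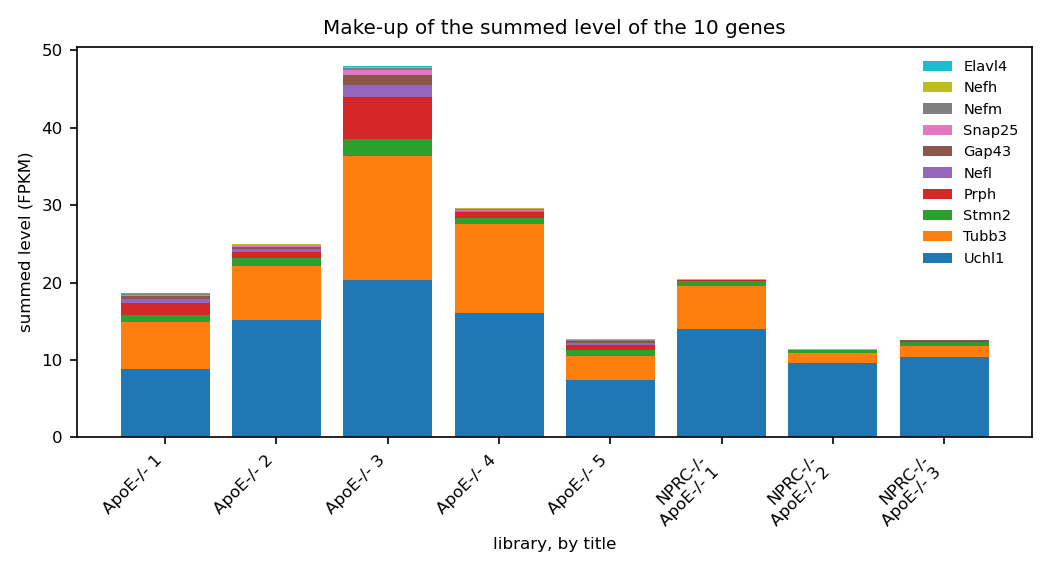
Stacked FPKM of the 10 genes in each library, named by title. Uchl1 (bottom) and Tubb3 make up 75.7 to 93.1% of each ApoE-/- bar and 93.9 to 95.5% of each NPRC-/-ApoE-/- bar, and ApoE-/- 3 is the tallest at 48.0 FPKM.

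On the per-length FPKM scale, levels differed strongly between the 10 genes. Uchl1 was above Tubb3, and Tubb3 above Prph, in all 8 libraries. Prph and Stmn2 exchanged places, with Prph higher in 2 of 5 ApoE-/- libraries and in 0 of 3 NPRC-/-ApoE-/- libraries. Stmn2 exceeded Nefl in all 8, whereas Nefl exceeded Gap43 in all 5 ApoE-/- libraries and in none of the 3 NPRC-/-ApoE-/- libraries. Among the low genes, Gap43 exceeded Snap25 in 4 of 5 ApoE-/- libraries, and Snap25, Nefm, Nefh and Elavl4 had no fixed order. The other 8 genes together summed to 3.72, 2.85, 11.67, 2.04 and 2.27 FPKM in ApoE-/- 1 to 5 and to 0.92, 0.51 and 0.77 FPKM in NPRC-/-ApoE-/- 1 to 3. The sum of all 10, which Uchl1 and Tubb3 dominate, overlapped between the groups, at 12.75 to 48.03 FPKM against 11.42 to 20.45. The ratio of Prph to Nefl ran from 2.21 to 4.67 in FPKM over the 6 libraries where both were above 0, the ApoE-/- libraries and NPRC-/-ApoE-/- 3. It was undefined in NPRC-/-ApoE-/- 1 and 2, where Prph had 23 and 8 counts and Nefl had 0.

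**Figure D4:**
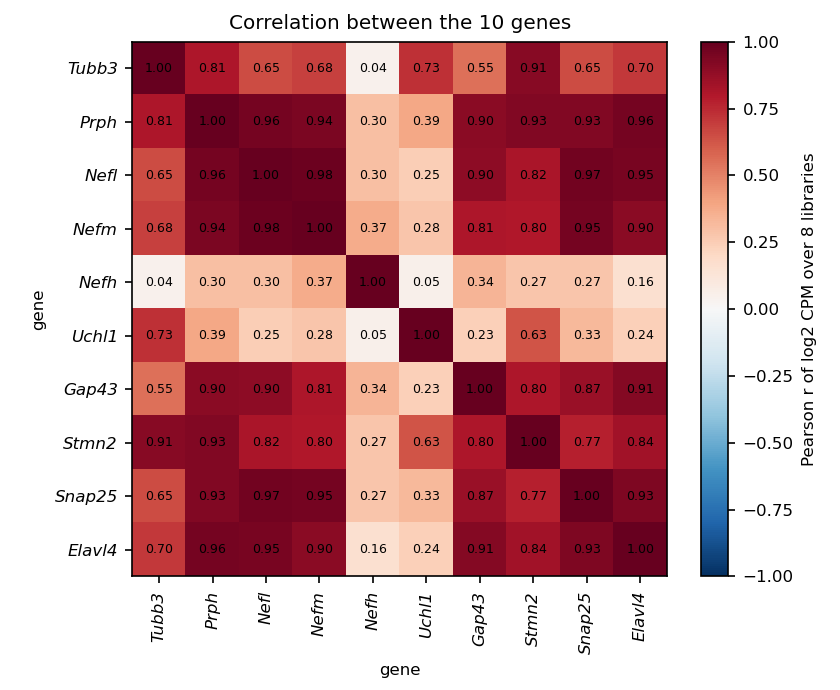
Pearson correlation of log2 CPM (prior count 2) between the 10 genes over the 8 libraries. The median of the 45 pairs is 0.774, and the pale rows are Nefh and Uchl1, with median correlations of 0.275 and 0.278 with the other genes.

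Across the 8 libraries the levels of the genes called by title were mostly correlated, and those of Nefh and Uchl1 were less so. The median r of a gene with the other 9 was 0.93 for Prph, 0.90 for Elavl4, 0.90 for Nefl and 0.87 for Snap25. The value was 0.68 for Tubb3. These correlations describe 8 libraries that include both titled groups, and they share the group difference and library ApoE-/- 3. The genes outside the list whose level most resembled the mean of the 10 were Rab3b, Prune2, Nrcam, Unc80, Slc6a2, Col14a1, Spire2, Ctnna2, Slc18a2 and Pcdh1, with r from 0.97 to 0.99 over the 8 libraries. Slc6a2 is the noradrenaline transporter and Slc18a2 the vesicular monoamine transporter of sympathetic neurons, and Rab3b is a small GTPase of regulated secretion. Abundant genes shared the profile too. The collagen gene Col14a1 had 21055 to 53958 counts and a log2 fold change of -0.62, and Prune2 had 1209 to 5476 counts and -0.98. Each of these 10 genes was also highest in ApoE-/- 3, and 206 loci had r above 0.9.

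**Figure D5:**
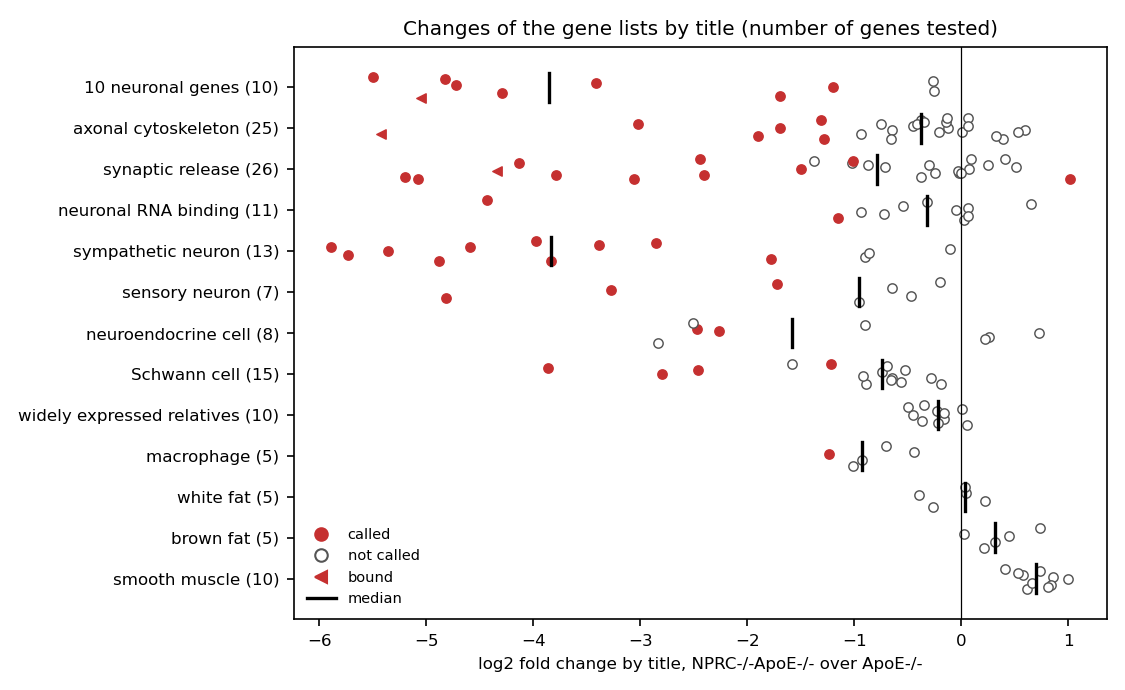
Log2 fold change by title of the tested genes of each list, with the number tested in brackets. Filled points were called, triangles are bounds for genes with 0 counts in the NPRC-/-ApoE-/- group, and black bars are medians. Among the lists drawn, the lowest medians are -3.85 for the 10 neuronal genes and -3.83 for sympathetic neuron markers, and the highest is 0.70 for smooth muscle. Genes and lists were chosen with earlier results known, so this order is a description.

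Of 25 further genes of the axonal cytoskeleton tested, 6 were called lower and 0 higher, with a median log2 fold change of -0.38. Values lay below 0 for 18 and above 0 for 7. The list summed to 1493 to 2109 CPM in ApoE-/- and 1466 to 2116 CPM in NPRC-/-ApoE-/- libraries, which overlapped. Of all loci tested, 3.79% were called lower and 1.52% higher, and 50.9% had a value below 0. Crmp1, which acts in axon guidance, had -3.03 (standard error 0.57), the growth cone protein gene Basp1 had -1.29 (0.28) and the axonal kinesin gene Kif5a had -1.9 (0.46). Ina, which encodes the neuronal intermediate filament alpha-internexin, had 0 counts in the 3 NPRC-/-ApoE-/- libraries and was at least 43.0-fold lower. ApoE-/- 3 held 117 of its 215 counts, and without that library the bound was 24.9-fold. The 4 genes had unadjusted p-values from 0.000442 to 0.0023 (edgeR).

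Of 26 tested genes of synaptic vesicle release, 10 were called lower and 1 higher, with a median of -0.79. Of all loci tested, 3.79% were called lower and 1.52% higher. Values lay below 0 for 19 and above 0 for 7. The list summed to 212 to 374 CPM in ApoE-/- and 209 to 282 CPM in NPRC-/-ApoE-/- libraries, which overlapped. Syt1, the calcium sensor of fast release, had a log2 fold change of -4.13 (standard error 0.84), and its relative Syt4 had -5.08 (1.15). Sncb, the gene of beta-synuclein, had 0 counts in the NPRC-/-ApoE-/- libraries and was at least 20.2-fold lower, or 14.5-fold without ApoE-/- 3. The one gene called higher was Stx1a, a partner of Snap25 in the release complex, named here after its value of 1.02 was seen. Among 11 neuronal RNA-binding genes tested, 7 had values below 0 and 4 above. The 2 called lower were Elavl2 at -4.44 (0.86), a relative of Elavl4, and the splicing factor gene Rbfox1 at -1.16 (0.32).

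Of 10 widely expressed relatives of these genes, 0 were called, 0 had an unadjusted p-value under 0.05 in edgeR or passed adjustment, and the median was -0.22. Beside Tubb3 at -1.69, the tubulin genes Tubb5 and Tubb6 had log2 fold changes of -0.36 and -0.50. Snap29, a relative of Snap25 that serves membrane fusion in many tissues, had -0.35 against -4.82 for Snap25. Uchl3 had -0.45, where its neuronal relative Uchl1 had -0.27.

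Of 13 markers of sympathetic neurons, all of them tested, 10 were called lower, and their median log2 fold change was -3.83. Of all loci tested, 3.79% were called lower. The gene lists were chosen with earlier results of these data known, so their counts are descriptions. Th, the rate-limiting enzyme of catecholamine synthesis, had -5.89 (standard error 1.18), and Dbh, which makes noradrenaline, had -5.74 (1.04). The summed level of the list was 41.5 to 210 CPM in ApoE-/- libraries and 8.97 to 16.4 CPM in NPRC-/-ApoE-/- libraries, and none of the 13 was at 0 in every library of a group. By genotype entry the sums overlapped, at 8.97 to 210 CPM in ApoE-/- and 16.4 to 42.4 CPM in NPRC-/-ApoE-/- libraries. Sensory markers had 7 tested genes, of which 3 were called lower (Scn9a, Trpv1 and Scn11a), with a median of -0.95. The sensory markers Tac1, Scn10a and Calca did not pass the filter on low counts. Tac1 had 17 counts in ApoE-/- 2 and 0 in the other libraries, and Scn10a had 12 in ApoE-/- 2, 8 in ApoE-/- 5 and 0 elsewhere. Calca had 4 counts in ApoE-/- 3, 5 in ApoE-/- 5 and 8 in NPRC-/-ApoE-/- 3. The cholinergic markers Slc18a3 and Slc5a7 were also too low to be tested, with reads in ApoE-/- 5 (4 and 19 counts) and, for Slc5a7, in ApoE-/- 2 (8 counts). These low markers were thus near 0 in both groups. Of 8 neuroendocrine markers, 2 were called lower, Chgb and Pcsk2, with a median of -1.58. Values lay below 0 for 5 and above 0 for 3. The list summed to 288 to 372 CPM in ApoE-/- and 237 to 513 CPM in NPRC-/-ApoE-/- libraries, which overlapped.

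Of 15 markers of Schwann cells, the glia that wrap peripheral axons, 15 had a value below 0, 4 were called lower and the median was -0.74. Of all loci tested, 50.9% had a value below 0 and 3.79% were called lower. By genotype entry, 7 of the 15 markers lay below 0 and 8 above. Ngfr had -3.86 (standard error 1.02) and the lineage factor gene Sox10 had -1.22 (0.32). The summed level of the 15 markers was 157 to 238 CPM in ApoE-/- and 102 to 134 CPM in NPRC-/-ApoE-/- libraries, which did not overlap. Of all single loci tested, 4.49% lay lower by title without overlap. By genotype entry the sums overlapped, at 102 to 238 CPM in ApoE-/- and 123 to 181 CPM in NPRC-/-ApoE-/- libraries. Of the 3 markers of central nervous glia tested, 1 was called lower, Mag, a myelin gene that Schwann cells express as well.

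Of the other tissues of the vessel, all 10 smooth muscle markers had values above 0 (median 0.70), 9 with an unadjusted p-value under 0.05 in edgeR and 0 called, and their sum was 6386 to 8342 CPM in ApoE-/- and 7889 to 15311 CPM in NPRC-/-ApoE-/- libraries. The 5 macrophage markers had values below 0 (median -0.93), with Lyz2 called lower. Of the 5 white fat markers 0 were called (median 0.04), nor were any of the 5 brown fat markers (median 0.31), and their sums overlapped between the groups, at 111 to 577 against 229 to 422 CPM and 230 to 837 against 564 to 877 CPM. The 6 skeletal muscle markers had values above 0 (median 1.00), with Myh1 called higher at 1.9. Their sum was 2.29 to 38.3 CPM (median 3.38) in ApoE-/- and 27.8 to 35.7 CPM (median 35.3) in NPRC-/-ApoE-/- libraries. The part of tissue make-up, including how much adventitia, fat or ganglion each sample held, in the levels of the 10 genes was not tested. By genotype entry, 0 genes were called in each of these lists. Without ApoE-/- 3, a comparison added after the values were seen, 6 axonal cytoskeleton, 8 synaptic release, 10 sympathetic and 4 Schwann cell genes were called lower by title. Of the 32400 loci tested without it, 1333 were called in either direction. The calls of Mag, Lyz2 and Pcsk2 were lost without it, and the log2 fold changes of Th, Dbh, Syt1, Syt4 and Ngfr became -4.93, -4.90, -3.25, -4.25 and -2.73.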

How the data were processed

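Poly(A) RNA of 8 whole aortas was made into dUTP strand-marked libraries and read as paired ends. Per the submitters' notes, reads were trimmed with cutadapt 1.9, checked with FastQC and placed on GRCm38. Mapping was by HISAT2 and assembly by StringTie, as the study states. The authors deposited whole-number counts of each locus in each library without normalization, and FPKM values that the authors scaled to transcript length and mapped fragments. How counts were made and whether strand was used is not given in the sources used here. The table also holds names and annotation of loci, and 0 of its per-sample columns lacked a sample. Loci with no gene name (1686) held 0.607% of the counts.

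Members and gene lists were chosen with earlier results of these data known. Libraries were grouped by title and, separately, by genotype entry. Loci with at least 10 counts in at least 3 libraries (32823) were fitted in R 4.3.3 with edgeR 4.0.16 (TMM, quasi-likelihood test, Benjamini-Hochberg adjustment over all loci), because a filter of 1 FPKM would have left 2 of the 10 genes. CPM are counts scaled to an equal library total. Sums over a list and log2 CPM also carried the TMM scaling between libraries, and the CPM printed for single genes did not. Standard errors were not estimated by the fit but taken as the absolute log2 fold change over the square root of the F statistic. The biological coefficient of variation was 0.416, and the 3 to 5 libraries a group limit the precision. The submitters' text gives separate mice for the libraries, so p-values measure the spread between these mice. No pair of libraries had counts within sampling noise (lowest mean chi-square per locus 100.7). The study states 5 mice per group, and 8 libraries were analysed here. The test was tested on simulated data. Named genes were the 10 members, up to 4 genes of each list with the smallest p by title, and the 10 loci most correlated with the mean of the members, and the results of 3 list genes are not reported here. Alternatives covered DESeq2 1.42.0, limma 3.58.1 on log2(FPKM + 1) and log2(FPKM + 0.1), scaling, filters, a replicate block, the label and each library left out.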

Additional observations from a re-analysis of the deposited data

Results flagged for a closer look

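Within the 5 libraries titled ApoE-/-, the log2 CPM of Nefm was 1.14 in ApoE-/- 3, far from the other 4, which lay between -0.95 and -0.36. Stmn2 stood apart in the same library, at 3.97 log2 CPM against 2.36 to 2.73 in the other 4. Both were picked by the gap of the highest library to its neighbour. Of the 20 groups examined 2 were picked, where chance gives about 1.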

How the results depend on the processing

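Of the 10 genes, 8 were called by title. The number was 2 with limma on log2(FPKM + 1), which shrinks the change of genes under 1 FPKM by construction, and 1 with a filter of 1 FPKM in 3 libraries, where 2 genes were tested. It was 0 when libraries were grouped by genotype entry, and 6 to 8 with each library left out. The median log2 fold change of -3.85 became -0.34 and -1.24 with limma on log2(FPKM + 1) and log2(FPKM + 0.1), -0.98 with the filter of 1 FPKM and -1.07 by genotype entry, and ranged from -4.23 to -2.79 with each library left out (-2.79 without ApoE-/- 3). Over the loci tested, DESeq2 gave 999 and edgeR 0 adjusted p-values under 0.05, and called loci ranged from 1058 to 3136 with a library left out, and from 186 with limma on log2(FPKM + 1) to 2287 without the filter among the other alternatives by title. By genotype entry the 10 genes had 0 calls under every alternative run.

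Replicate numbers did not pair the libraries (mean correlation of deviations -0.094 for same-numbered libraries and 0.023 for others). With the replicate block in libraries 1 to 3, 8 genes were called, with a median of -4.09, against 8 and -4.37 without the block. Nefh reversed, to 0.0699 with the block and 0.38 by genotype entry. Nefl, Nefm, Gap43, Snap25 and Elavl4 had at most 12 counts in any NPRC-/-ApoE-/- library, so their fold changes rest on few counts.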
